A study of Mus musculus with 8 samples.

Results

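Eosinophil genes were read from whole uterus of pregnant mice at embryonic day 8 (E8). They were 10 genes, chosen by symbol as classical eosinophil genes: the surface lectin Siglecf, the chemokine receptor Ccr3, the interleukin-5 receptor chain Il5ra, the lipoxygenase Alox15, the granule proteins Epx, Prg2 and Prg3, and the eosinophil-associated ribonucleases Ear1, Ear2 and Ear6. All 10 had a row among the 49585 genes of the count table. The DT-labelled group was 4 Foxp3DTR females, replicates 1, 3, 4 and 5, given 1 µg of diphtheria toxin (DT) into the peritoneum at E1, E3, E5 and E7. The PBS-labelled group was 4 Foxp3DTR females, replicates 1, 2, 4 and 6, given phosphate-buffered saline on the same days. All females carried the DTR allele, were 8 weeks old and had mated with BALB/c males, and each uterus was taken whole with its fetal tissues. The DTR allele places a receptor for the toxin under the Foxp3 gene, which makes Foxp3+ cells sensitive to it; Foxp3 is the transcription factor that defines regulatory T cells. The protocol states that this regimen removed 85% of regulatory T cells, calls the injections daily although it lists alternate days, and does not give the strain background. Each library was taken to be 1 female, and the p-values measure the spread between these libraries.

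Eosinophils are granulocytes made in the bone marrow under interleukin-5, a cytokine of type 2 immunity. They enter tissues along eotaxins, chemokines that bind CCR3, and they carry granules of cationic proteins and ribonucleases. In rodents they are found in the uterus during the estrous cycle. Several of their genes are not theirs alone: Siglecf, Alox15, Ear1 and Ear2 are also read in some tissue macrophages of the mouse, and Il5ra in some B cells. In bulk tissue, fewer cells of a type and less RNA per cell cannot be told apart.

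The ribonuclease genes are close copies, which limits what reads of 75 bases can separate, so the first 75 coding bases of the 3 genes are shown, from the GENCODE M21 transcripts of GRCm38, with bases that differ from Ear2 in capitals. They lie at chr14:44102887-44102961 on the plus strand for Ear2, chr14:43819335-43819409 on the minus strand for Ear1 and chr14:51853998-51854072 on the plus strand for Ear6.
Ear2: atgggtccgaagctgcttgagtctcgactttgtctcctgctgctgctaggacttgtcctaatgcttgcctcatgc
Ear1: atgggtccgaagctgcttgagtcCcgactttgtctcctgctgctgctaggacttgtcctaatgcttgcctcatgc
Ear6: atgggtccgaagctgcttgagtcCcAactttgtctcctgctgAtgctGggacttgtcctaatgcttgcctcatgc
Ear1 differed from Ear2 at 1 of these bases and Ear6 at 4. Over the coding sequence Ear1 and Ear2 were 95.7% identical and Ear6 and Ear2 88.2%. Of all windows of 75 bases in their transcripts, 39.3% for Ear1 and 23.4% for Ear2 occurred word for word in another gene (Ear10, each other, or the pseudogenes Ear-ps2 and Ear-ps9), against 0% for Ear6 and for the other 7 genes. An exon of Ear1 also overlaps Ear-ps9. Values of Ear1 and Ear2 are therefore uncertain as to which copy the reads came from.

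The libraries held 94794512 to 109847604 counts, and 9 of the 10 genes passed the filter on low counts, Prg3 being the exception. Foxp3, which checks the labels, had 5.12, 5.10, 5.72 and 5.69 CPM (counts scaled to the TMM-adjusted library size) in DT-labelled replicates 1, 3, 4 and 5, against 4.89, 4.36, 5.44 and 4.86 CPM in PBS-labelled replicates 1, 2, 4 and 6. Values by library keep this order. No drop in Foxp3 was seen under DT (log2 fold change 0.15 ± 0.10 (SE), edgeR adjusted p = 0.595), and 18.9% of its windows are shared with overlapping genes, so each direction given here is between libraries as labelled. PBS-labelled replicates 1 and 2 stood apart by fetal genes: summed yolk sac and embryo markers were 7.75 to 20.2 CPM in DT-labelled libraries, against 85.6 and 425 CPM in those 2 and 14.4 and 16.4 CPM in the other PBS-labelled libraries. The titles also carry a tag whose meaning is not stated. It is S3 on DT-labelled replicates 1 and 3 and S4 on DT-labelled replicates 4 and 5. On PBS-labelled libraries it is S1 for replicates 1 and 2 and S2 for replicates 4 and 6. The tag cannot be told apart from the groups, nor S1 from the libraries high in fetal genes. Leaving out PBS-labelled replicates 1 and 2 thus removes all of S1.

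Siglecf and Alox15 were the members whose groups did not overlap, both higher in the DT-labelled libraries, and neither passed the edgeR threshold. Of the 9 members tested, 0 passed in either direction (adjusted p under 0.05 over 22693 genes), where 0.326% of all tested genes passed, 0.322% higher and 0.00441% lower in DT-labelled libraries. At an unadjusted p under 0.05 there were 3 members higher in DT-labelled libraries, Siglecf, Alox15 and Ccr3, and 0 lower, with 4.72% of all genes higher and 3.98% lower at that level. DESeq2 called 2 members higher, Siglecf and Alox15, and 0 lower, where it called 1.21% of all genes higher and 0.256% lower. limma voom called 0 members, where it called 0.225% of all genes higher and 0.00441% lower. Groups that did not overlap, DT-labelled higher, were found for 2 members and 3.33% of all tested genes, and DT-labelled lower for 0 members and 1.73%. The log2 fold change was above 1 for 4 members, Siglecf, Alox15, Ccr3 and Ear6, and for 1.47% of all tested genes. Of the tested members 7 had a positive log2 fold change and 2 a negative one, with a median of 0.90, while 51.4% of all tested genes were positive and their median was 0.0070. Scaling by library size alone put the median of all genes at 0.12. Summed markers of some other cells did not overlap between the groups either. T cell markers summed to 16.7 to 20.1 CPM in DT-labelled and 5.60 to 8.90 CPM in PBS-labelled libraries, with 5 of 10 passing by edgeR. Macrophage markers summed to 553 to 627 CPM in DT-labelled and 439 to 508 CPM in PBS-labelled libraries, with 2 of 12 passing, C1qa and C1qb. Of these 12, 8 had a positive log2 fold change and 4 a negative one, Cd68, Cd209f, Mertk and Cd163. The most abundant macrophage markers, Csf1r, Lyz2 and Mrc1, each overlapped between groups.

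**Figure D1:**
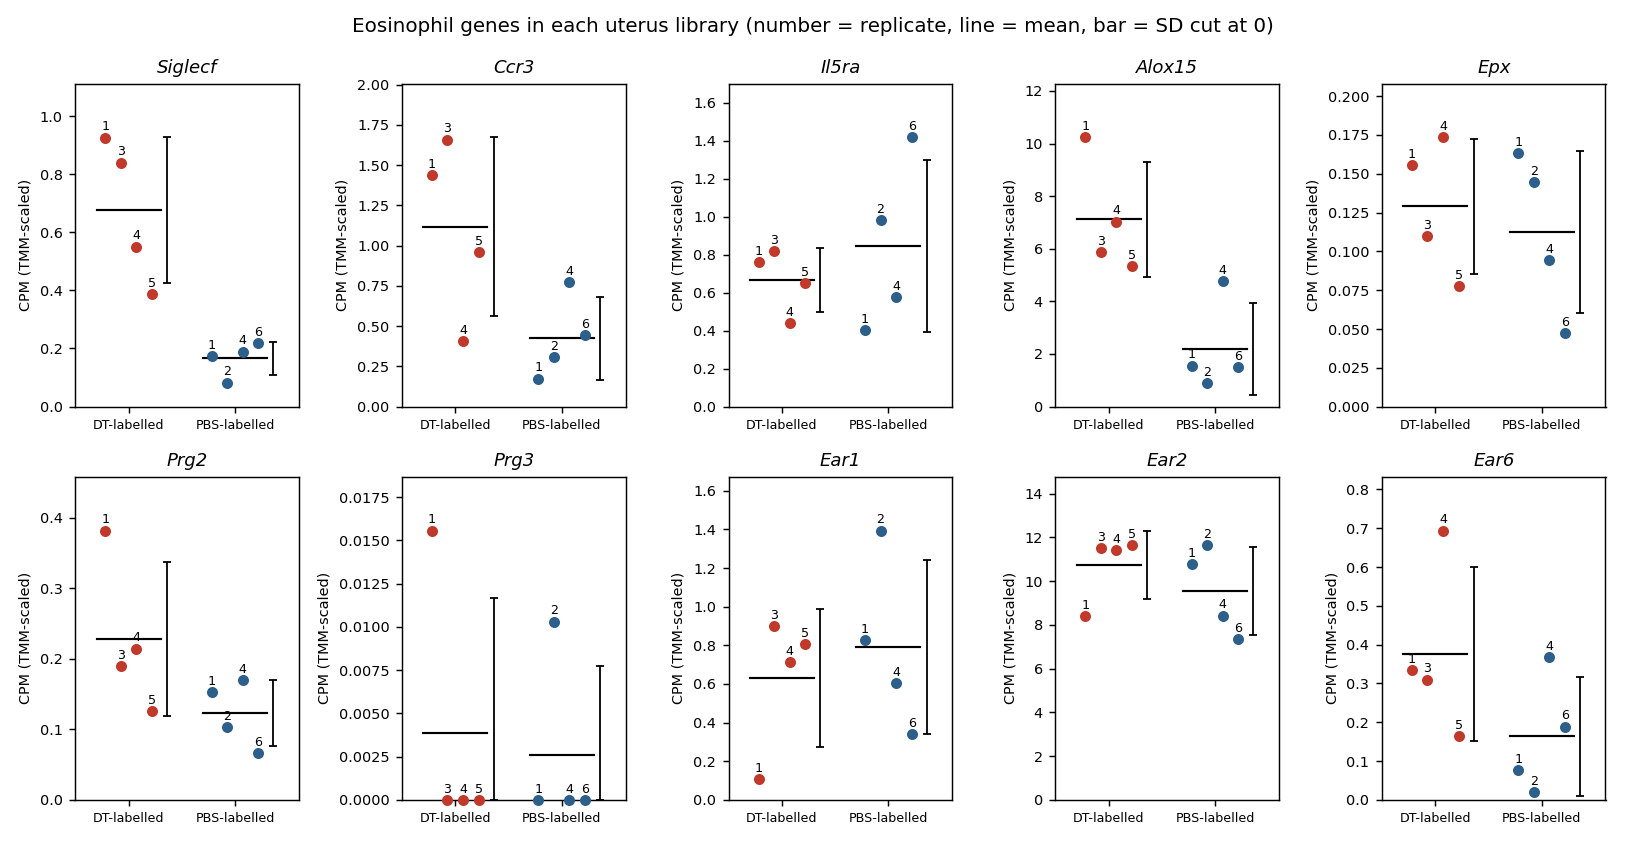
CPM (TMM-scaled) of each eosinophil gene in the 4 DT-labelled and 4 PBS-labelled libraries, on a separate linear axis per gene; points are libraries numbered by replicate, lines are means and bars are SDs, cut at 0. All 4 DT-labelled libraries lie above all PBS-labelled libraries for Siglecf (0.388 CPM or more against 0.217 CPM or less) and Alox15 (5.33 or more against 4.76 or less), and the groups overlap for the other 8 genes.

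Of the surface receptors, Siglecf (ENSMUSG00000039013, chr7:43351341-43359531, plus strand, GRCm38), an inhibitory sialic-acid-binding lectin, had 0.926, 0.839, 0.551 and 0.388 CPM in the DT-labelled libraries, against 0.174, 0.0825, 0.189 and 0.217 CPM in the PBS-labelled libraries. Every DT-labelled library was above every PBS-labelled one, and the lowest, PBS-labelled replicate 2, had 8 reads. The means were 0.676 ± 0.250 CPM in DT-labelled and 0.166 ± 0.0583 CPM in PBS-labelled libraries (SD, n = 4 each), a 4.05-fold difference. The log2 fold change was 2.02 ± 0.37 (95% confidence interval 1.16 to 2.87), with an adjusted p of 0.107 by edgeR, 0.147 by limma voom and 0.000144 by DESeq2. DESeq2 called Siglecf in all 8 fits that left out 1 library, with adjusted p-values of 6.63e-06 to 0.00771. By edgeR 0 of these 8 fits called it, with adjusted p-values of 0.124 to 0.362. Its edgeR log2 fold change was 1.799 to 2.209 over these fits. Only the fit lacking DT-labelled replicate 1 (115 genes) and that lacking PBS-labelled replicate 4 (43 genes) had any edgeR call as higher. Elsewhere 0 genes of the whole table were called higher, so the missing call in those fits is not particular to Siglecf. The edgeR log2 fold change was 1.54 without DT-labelled replicate 1 and PBS-labelled replicates 1 and 2 (adjusted p = 0.393).

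Ccr3 (ENSMUSG00000035448, chr9:124021972-124031689, plus strand), the eotaxin receptor, had 1.44, 1.66, 0.408 and 0.961 CPM in the DT-labelled libraries, against 0.174, 0.309, 0.775 and 0.444 CPM in the PBS-labelled libraries. Of the DT-labelled libraries 3 were above every PBS-labelled one, while replicate 4 was below PBS-labelled replicates 4 and 6, so the groups overlapped. Its log2 fold change was 1.38 ± 0.53 (interval 0.16 to 2.60), with an adjusted p of 0.558 by edgeR and 0.230 by DESeq2, which called it in 1 of the 8 fits that left out 1 library (adjusted p = 0.0122 without PBS-labelled replicate 4). The edgeR value was 0.73 without DT-labelled replicate 1 and PBS-labelled replicates 1 and 2.

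Il5ra (ENSMUSG00000005364, chr6:106710357-106749037, minus strand), the ligand-specific chain of the interleukin-5 receptor, had 0.763, 0.819, 0.439 and 0.650 CPM in the DT-labelled libraries, against 0.403, 0.980, 0.576 and 1.42 CPM in the PBS-labelled libraries. The PBS-labelled libraries held both the lowest and the highest value, in replicates 1 and 6. Its log2 fold change was -0.34 ± 0.39 (interval -1.24 to 0.56, edgeR adjusted p = 0.713), and it was 0.0335 without PBS-labelled replicate 6. Of the receptors, Siglecf and Ccr3 varied together over the 8 libraries (Pearson r = 0.744 on log2 CPM) and Siglecf and Il5ra did not (r = -0.122). These values describe 8 libraries that share depth and group.

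The 250 bases before the start of these 3 receptor genes are shown, from the RefSeq promoter table (GRCm38.p6), with matches to GATAA in capitals. GATAA is a form of the site that GATA factors bind, among them GATA1, the lineage factor of eosinophils. Other forms of the site were not searched. The windows are chr7:43351091-43351340 on the plus strand for Siglecf, chr9:124021721-124021970 on the plus strand for Ccr3 and chr6:106749038-106749287 on the minus strand for Il5ra.
Siglecf: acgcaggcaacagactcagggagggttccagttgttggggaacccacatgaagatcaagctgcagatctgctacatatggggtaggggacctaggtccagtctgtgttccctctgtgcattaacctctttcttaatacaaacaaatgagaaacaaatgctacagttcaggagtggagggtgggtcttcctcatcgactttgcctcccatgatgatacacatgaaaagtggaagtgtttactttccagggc
Ccr3: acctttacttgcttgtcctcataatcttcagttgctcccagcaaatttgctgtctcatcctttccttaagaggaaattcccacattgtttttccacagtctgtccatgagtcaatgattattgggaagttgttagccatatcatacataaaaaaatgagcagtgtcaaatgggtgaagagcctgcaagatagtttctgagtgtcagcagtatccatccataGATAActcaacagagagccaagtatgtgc
Il5ra: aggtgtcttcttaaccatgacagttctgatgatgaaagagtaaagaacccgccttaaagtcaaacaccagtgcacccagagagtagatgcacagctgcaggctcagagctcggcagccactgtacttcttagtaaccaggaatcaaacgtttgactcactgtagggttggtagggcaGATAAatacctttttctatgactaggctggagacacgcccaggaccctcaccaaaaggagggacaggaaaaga
Ccr3 and Il5ra each held 1 match and Siglecf 0, with both strands searched. At least 1 match was held by 3 of the 8 members with a RefSeq window, the other being Prg3 with 2, against 22.6% of 32851 promoter windows of this length. Alox15 and Prg2 were the members without an entry. A match is a string of letters and not a shown binding site, and its bearing on the values was not tested.

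Alox15 (ENSMUSG00000018924, chr11:70344152-70352031, minus strand) encodes an arachidonate lipoxygenase that makes lipid mediators in eosinophils and resident macrophages. It had 10.2, 5.87, 7.03 and 5.33 CPM in the DT-labelled libraries, against 1.56, 0.887, 4.76 and 1.51 CPM in the PBS-labelled libraries. The groups did not overlap, but PBS-labelled replicate 4 came close to DT-labelled replicate 5. The means were 7.11 ± 2.20 CPM in DT-labelled and 2.18 ± 1.75 CPM in PBS-labelled libraries, a 3.26-fold difference. The log2 fold change was 1.70 ± 0.50 (interval 0.55 to 2.86), with an adjusted p of 0.451 by edgeR, 0.230 by limma voom and 0.0304 by DESeq2. Without PBS-labelled replicate 4 it was 2.43 and passed in edgeR (adjusted p = 0.0444), and DESeq2 called it in 1 of the 8 fits that left out 1 library. Without DT-labelled replicate 1 and PBS-labelled replicates 1 and 2 it was 0.95.

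The granule genes were read at few counts. Epx (ENSMUSG00000052234, chr11:87864000-87875536, minus strand), eosinophil peroxidase, had 20, 11, 17 and 8 reads in the DT-labelled libraries, against 15, 14, 10 and 5 reads in the PBS-labelled libraries. The groups overlapped, with means of 0.129 ± 0.0435 CPM in DT-labelled and 0.112 ± 0.0522 CPM in PBS-labelled libraries, and the log2 fold change was 0.22 ± 0.41 (interval -0.73 to 1.17, edgeR adjusted p = 0.823), or 0.86 without PBS-labelled replicates 1 and 2. Prg2 (ENSMUSG00000027073, chr2:84980461-84983632, plus strand), the major basic protein of the granule, had 49, 19, 21 and 13 reads in the DT-labelled libraries, against 14, 10, 18 and 7 reads in the PBS-labelled libraries. DT-labelled replicate 1 was the highest and the groups overlapped through DT-labelled replicate 5. In CPM, 3 of 4 DT-labelled libraries were above every PBS-labelled one, and the log2 fold change was 0.90 ± 0.42 (interval -0.05 to 1.85, edgeR adjusted p = 0.571), or 0.52 without DT-labelled replicate 1.

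Prg3 (ENSMUSG00000027072, chr2:84988215-84993886, plus strand), the second major basic protein, had 2 reads in DT-labelled replicate 1 and 1 read in PBS-labelled replicate 2, and 0 in the other 6 libraries. In those 6 a count of 0 allows up to 3 counts, 0.02834 to 0.03266 CPM per library, so no difference was detectable at this depth and no fold is given (exact permutation test over the 8 libraries, two-sided p = 1). Such limits cover counting error only. The Prg2 and Prg3 coding sequences were 67.6% identical and shared no window of 75 bases.

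Ear2 (ENSMUSG00000072596, chr14:44102654-44103534, plus strand), a ribonuclease of eosinophil granules, was the most abundant member. It had 8.39, 11.5, 11.4 and 11.6 CPM in the DT-labelled libraries, against 10.8, 11.6, 8.43 and 7.35 CPM in the PBS-labelled libraries. The groups overlapped, and DT-labelled replicate 1 stood below the other 3 of its group. For Ear2 the log2 fold change was 0.17 ± 0.17 (interval -0.23 to 0.56, edgeR adjusted p = 0.679), or 0.44 without PBS-labelled replicates 1 and 2.

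Ear1 (ENSMUSG00000072601, chr14:43818765-43875517, minus strand), its close copy, had 0.109, 0.899, 0.714 and 0.806 CPM in the DT-labelled libraries, against 0.828, 1.39, 0.605 and 0.340 CPM in the PBS-labelled libraries. As for Ear2, DT-labelled replicate 1 was the lowest of its group and PBS-labelled replicate 2 the highest of all. For Ear1 the log2 fold change was -0.33 ± 0.62 (interval -1.75 to 1.09, edgeR adjusted p = 0.821), and its sign turned to 0.41 without PBS-labelled replicates 1 and 2.

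Ear6 (ENSMUSG00000062148, chr14:51853699-51854643, plus strand), the third ribonuclease, had 43, 31, 68 and 17 reads in the DT-labelled libraries, against 7, 2, 39 and 20 reads in the PBS-labelled libraries. Replicate 4 was the highest in both groups, and the groups overlapped. The log2 fold change was 1.17 ± 0.71 (interval -0.47 to 2.81, edgeR adjusted p = 0.573) and it was 0.42 without PBS-labelled replicates 1 and 2. Summed into 1 feature, all annotated Ear genes with a row, Ear10 and Ear14 included, gave 0.16 on the log2 scale (edgeR adjusted p = 0.711).

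**Figure D2:**
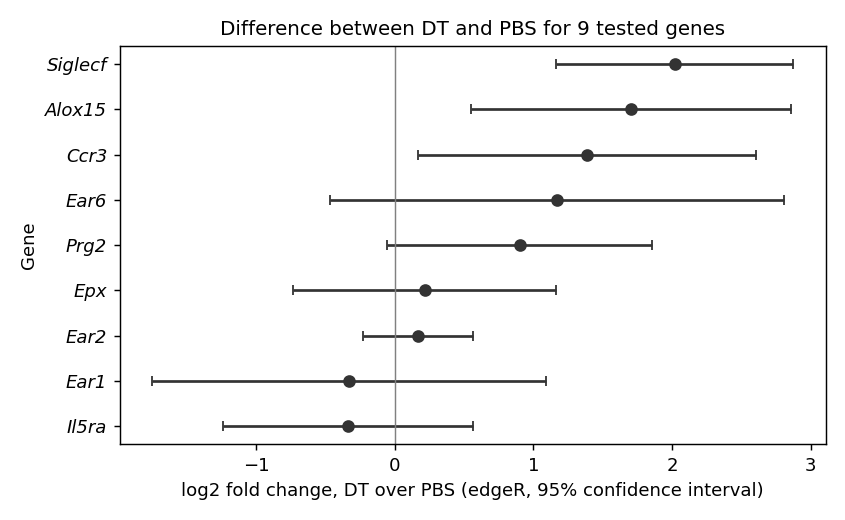
Log2 fold change, DT-labelled over PBS-labelled, of the 9 tested eosinophil genes (horizontal axis; genes run down the vertical axis in order of the value), with points for edgeR estimates and bars for 95% confidence intervals. The intervals of Siglecf, Alox15 and Ccr3 lie above 0, before adjustment over all genes, and the other 6 include 0.

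Per kilobase of exon, the order of levels in the DT-labelled libraries was Ear2 at 14.9 ± 2.18, Alox15 at 2.90 ± 0.895, Ear1 at 0.866 ± 0.489, Ear6 at 0.398 ± 0.238, Ccr3 at 0.341 ± 0.170, Prg2 at 0.272 ± 0.130, Siglecf at 0.242 ± 0.0896, Il5ra at 0.187 ± 0.0470, Epx at 0.0472 ± 0.0159 and Prg3 at 0.0041 ± 0.0082 CPM per kilobase (SD, n = 4). In the PBS-labelled libraries it was Ear2 at 13.3 ± 2.78, Ear1 at 1.08 ± 0.613, Alox15 at 0.888 ± 0.712, Il5ra at 0.236 ± 0.126, Ear6 at 0.173 ± 0.162, Prg2 at 0.147 ± 0.0564, Ccr3 at 0.130 ± 0.0787, Siglecf at 0.0594 ± 0.0209, Epx at 0.0411 ± 0.0191 and Prg3 at 0.0027 ± 0.0054 CPM per kilobase. Ear2 stood above all others in both groups. Neighbours in the order between Ear1 and Il5ra in the DT-labelled libraries differed by less than the larger of their SDs. In the PBS-labelled libraries the same held for all neighbours below Ear2 other than Epx and Prg3. Summed over the 10 genes, the level was 22.7, 22.2, 21.7 and 20.1 CPM in the DT-labelled libraries, against 14.3, 15.6, 16.0 and 11.6 CPM in the PBS-labelled libraries. That sum was mostly Ear2 and Alox15: Ear2 held 36.9% to 57.8% of the member counts in DT-labelled and 52.8% to 75.3% in PBS-labelled libraries, and Alox15 26.4% to 45.0% in DT-labelled and 5.70% to 29.8% in PBS-labelled libraries.

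**Figure D3:**
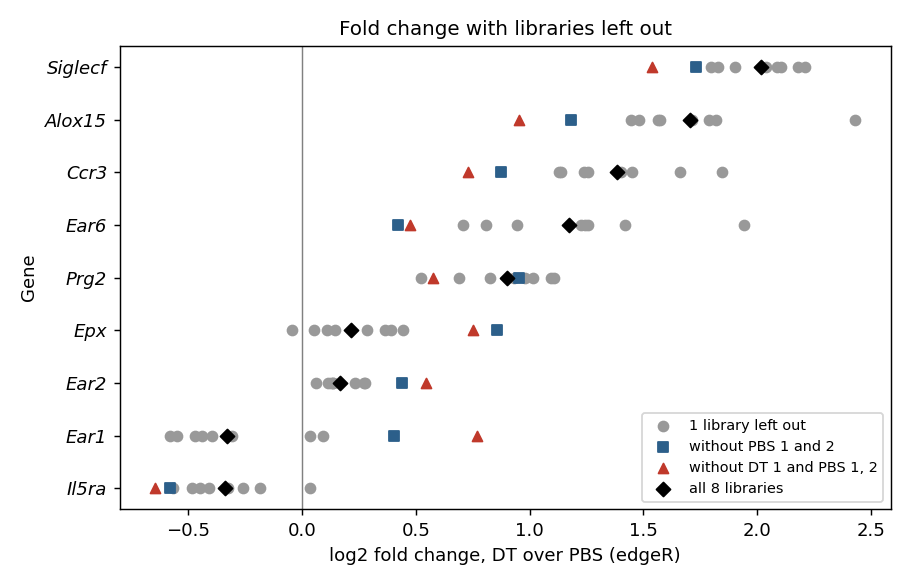
Log2 fold change, DT-labelled over PBS-labelled, of the 9 tested eosinophil genes (edgeR, horizontal axis) with all 8 libraries (diamonds), with each library left out in turn (circles), without PBS-labelled replicates 1 and 2 (squares) and without these and DT-labelled replicate 1 (triangles). Siglecf stays between 1.54 and 2.21 in all of these, while Ear1, Il5ra and Epx lie on both sides of 0.

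Of 6 eosinophil chemoattractants tested, 1 passed by edgeR and by limma voom, Ccl5, higher in the DT-labelled libraries. All 6 had a positive log2 fold change, with a median of 1.26. The groups did not overlap for 5 of them, Ccl11 being the exception, against 3.33% of all tested genes without overlap and higher in DT-labelled libraries. DESeq2 called 4 higher, Ccl5, Ccl8, Ccl3 and Ccl7, where it called 1.21% of all genes higher. Ccl5, a ligand of CCR3 and other receptors, rose: it had 2.87, 2.79, 2.42 and 2.86 CPM in the DT-labelled libraries, against 0.817, 0.959, 1.38 and 0.935 CPM in the PBS-labelled libraries. The groups did not overlap, the log2 fold change was 1.42 ± 0.18 (edgeR adjusted p = 0.0322), and Ccl5 lost the edgeR call in 6 of the 8 fits that left out 1 library. In those 6 fits edgeR called 0 genes of the whole table higher, so the loss was not particular to Ccl5. Its log2 fold change was 1.324 to 1.597 over the 8 fits. Without PBS-labelled replicates 1 and 2 it was 1.24 with an edgeR adjusted p of 0.375. That fit had fewer libraries and also called 0 genes higher.

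The eotaxins did not pass. Ccl24, eotaxin-2, had 2.04, 0.510, 1.04 and 0.553 CPM in the DT-labelled libraries, against 0.283, 0.340, 0.463 and 0.217 CPM in the PBS-labelled libraries. DT-labelled replicates 1 and 4 were the highest and the groups did not overlap (log2 fold change 1.67 ± 0.48, edgeR adjusted p = 0.449, and 1.10 without DT-labelled replicate 1). Ccl11, eotaxin-1, had 4.19, 1.43, 2.57 and 1.42 CPM in the DT-labelled libraries, against 0.697, 0.660, 2.00 and 1.24 CPM in the PBS-labelled libraries. It was also highest in DT-labelled replicates 1 and 4, with overlap through PBS-labelled replicate 4 (1.06 ± 0.48, edgeR adjusted p = 0.571). It was 0.65 without DT-labelled replicate 1, and 0.16 without PBS-labelled replicates 1 and 2 as well. The monocyte-attracting chemokines Ccl8, Ccl7 and Ccl3 had log2 fold changes of 1.81 ± 0.34, 1.10 ± 0.24 and 0.95 ± 0.19, with edgeR adjusted p-values of 0.110, 0.205 and 0.143.

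In the interleukin-5 family 0 of 5 tested genes passed by edgeR, 3 were higher at an unadjusted p under 0.05, and DESeq2 and limma voom called 0. Il5 had 0.233, 0.190, 0.133 and 0.175 CPM in the DT-labelled libraries, against 0.0544, 0.0722, 0.0661 and 0.151 CPM in the PBS-labelled libraries. DT-labelled replicate 4 alone was below PBS-labelled replicate 6, and the log2 fold change was 1.07 ± 0.36 (edgeR adjusted p = 0.512, and 0.60 without DT-labelled replicate 1 and PBS-labelled replicates 1 and 2), with 18.5% of Il5 windows shared with an overlapping gene. The receptor chain that Il5ra pairs with, Csf2rb, had a log2 fold change of 0.14 ± 0.14, its copy Csf2rb2 0.73 ± 0.27, Csf2ra 0.27 ± 0.09 and Il3ra 0.04 ± 0.09. Il3 had 0 reads in all 8 libraries, and Csf2 did not pass the filter.

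Of the type 2 cytokines, alarmins and their targets 0 of 11 tested passed by edgeR, though an unadjusted p under 0.05 was reached by 4 higher and 2 lower genes. DESeq2 called 3 higher, Il33, Retnla and Chil3 (DESeq2 adjusted p = 0.00189, 0.00396 and 0.00669). It called 1 lower, Il17rb (DESeq2 adjusted p = 0.0476), and limma voom called 0. Il33, an alarmin of stromal cells, had 9.54, 8.29, 7.37 and 7.82 CPM in the DT-labelled libraries, against 4.82, 4.99, 5.78 and 6.35 CPM in the PBS-labelled libraries. Those groups did not overlap (log2 fold change 0.59 ± 0.13, edgeR adjusted p = 0.181). Retnla, made by macrophages and other cells under interleukin-4, had 98.1, 4.17, 23.7 and 4.76 CPM in the DT-labelled libraries, against 1.15, 1.41, 2.27 and 2.28 CPM in the PBS-labelled libraries. DT-labelled replicates 1 and 4 were far above the rest, and the log2 fold change was 4.20 ± 1.06 (edgeR adjusted p = 0.312), or 2.61 without DT-labelled replicate 1. Chil3, a chitinase-like protein, was highest in the same 2 libraries, at 7.92 and 14.1 CPM. The other DT-labelled libraries had 0.710 and 1.28 CPM, and PBS-labelled libraries 0.482 to 1.06 CPM (3.08 ± 0.91, edgeR adjusted p = 0.451). Il17rb, a receptor chain for interleukin-25, was at -1.09 ± 0.31 on the log2 fold scale with no overlap (edgeR adjusted p = 0.433), and at -0.57 without PBS-labelled replicates 1 and 2.

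Of the other ribonucleases, Rnase2a did not pass the filter but showed the same 2 libraries: it had 1200, 5, 100 and 12 reads in the DT-labelled libraries, against 3, 4, 5 and 3 reads in the PBS-labelled libraries. In CPM the groups did not overlap (exact permutation test over the 8 libraries, two-sided p = 0.0286, the smallest that 70 regroupings can give). The margin was narrow and came from the scaling. DT-labelled replicate 3 and PBS-labelled replicate 4 each had 5 reads, at 0.04996 and 0.0472 CPM. The Rnase2a coding sequence was 81.4% identical to that of Ear2, and Rnase2a shared no window of 75 bases with any other gene. Ear2 and Ear1 were at their lowest among DT-labelled libraries in replicate 1, where Rnase2a was highest. Rnase2b had 47 reads over the DT-labelled and 16 over the PBS-labelled libraries, with overlap. Ear10 had 2 reads over the DT-labelled and 3 over the PBS-labelled libraries, and Ear14 had 0 in all.

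**Figure D4:**
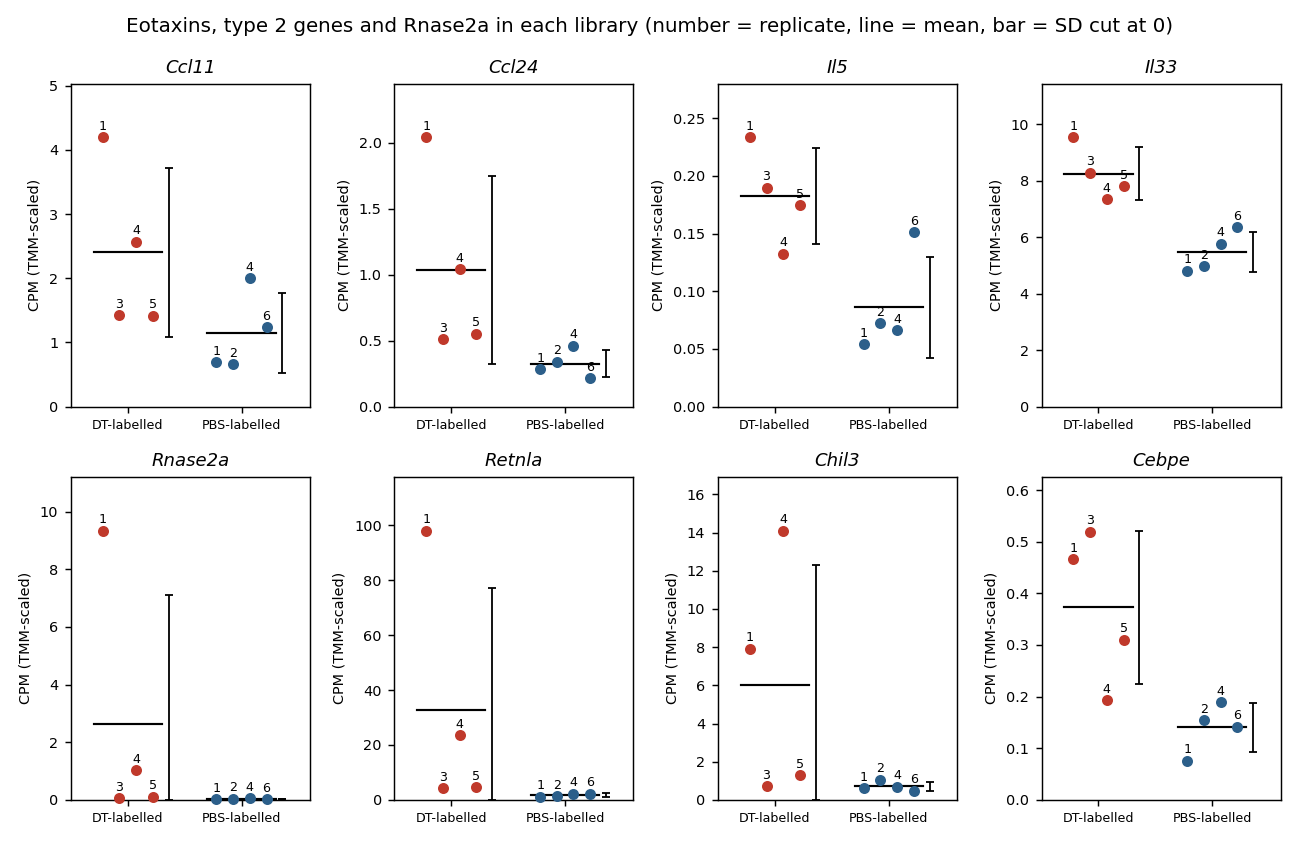
CPM (TMM-scaled) of eotaxins, type 2 genes, Rnase2a and the granulocyte factor Cebpe in the 4 DT-labelled and 4 PBS-labelled libraries, on a separate linear axis per gene; points are libraries numbered by replicate, lines are means and bars are SDs, cut at 0. Ccl11, Ccl24, Rnase2a, Retnla and Chil3 are highest in DT-labelled replicates 1 and 4, and Cebpe is highest in DT-labelled replicates 1 and 3.

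Of the 9 lineage factors 0 passed by edgeR, DESeq2 or limma voom, and an unadjusted p under 0.05 was reached by 2 higher genes and 1 lower. Cebpe, which late granulocyte maturation needs, had 0.467, 0.520, 0.194 and 0.311 CPM in the DT-labelled libraries, against 0.0762, 0.155, 0.189 and 0.142 CPM in the PBS-labelled libraries. The groups did not overlap, by a narrow margin between replicate 4 of each (log2 fold change 1.40 ± 0.38, edgeR adjusted p = 0.383). Spi1, a myeloid factor, had a log2 fold change of 0.41 ± 0.11 and Cebpa, which granulocyte progenitors need, -0.36 ± 0.12. Gata1, also an erythroid factor, had a log2 fold change of -0.92 ± 0.90, and was 1.31 without PBS-labelled replicates 1 and 2, where fetal globins were high.

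Of 19 surface genes that eosinophils share with other leukocytes, 0 passed by edgeR, an unadjusted p under 0.05 was reached by 9 higher genes and 1 lower, and DESeq2 called 2 higher, Ccr1 (0.71 ± 0.14), a chemokine receptor, and Itgax (0.94 ± 0.21), an integrin, and limma voom 0. Siglece, a lectin of the same family as Siglecf, had 0.61 ± 0.17 with no overlap (edgeR adjusted p = 0.415). Of 10 lipid mediator enzymes, Alox15 among them, 0 passed by edgeR, and an unadjusted p under 0.05 was reached by 2 higher genes and 1 lower, while DESeq2 called Alox15 and limma voom 0. Alox12e, a lipoxygenase neighbour of Alox15, had a log2 fold change of 1.34 ± 0.46. Alox5, which starts leukotriene synthesis, had -2.14 ± 0.75, with 4.75 to 8.85 CPM in DT-labelled libraries, against 5.94 to 70.4 CPM in PBS-labelled ones, of which replicates 1 and 2 were the highest. It was -1.39 without PBS-labelled replicate 2 and -0.0106 without PBS-labelled replicates 1 and 2. Pla2g4a, a phospholipase, had 0.30 ± 0.20.

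Of the markers of other cells, a list of peritoneal and alveolar macrophage genes, which shares Siglecf, Alox15 and Ear2 with the members, summed to 49.2 to 60.6 CPM in DT-labelled and 44.9 to 82.9 CPM in PBS-labelled libraries, with 0 of 10 passing. Its other genes ranged widely: over all 8 libraries Icam2 had 11.7 to 22.5, Prg4 9.05 to 18.0, Gata6 3.02 to 6.77 and Car4 1.29 to 24.3 CPM, while Fabp1 had at most 0.134 and Cd209b at most 0.335 CPM. Marco had 0.0467 to 0.243 CPM in DT-labelled and 0.0109 to 0.113 CPM in PBS-labelled libraries, and Timd4 had 0.240 to 0.4998 CPM in DT-labelled and 0.155 to 0.340 CPM in PBS-labelled libraries. Summed markers overlapped between groups for neutrophils (45.0 to 164 CPM in DT-labelled, 75.0 to 207 CPM in PBS-labelled), mast cells (132 to 274 CPM in DT-labelled, 201 to 434 CPM in PBS-labelled), basophils (160 to 178 CPM in DT-labelled, 138 to 178 CPM in PBS-labelled) and blood (29.2 to 128 CPM in DT-labelled, 19.3 to 99.5 CPM in PBS-labelled). Those sums are carried by few genes, S100a8 among the neutrophil, Kit among the mast cell and Gata2 among the basophil markers. Of 11 neutrophil markers tested 0 passed by edgeR, DESeq2 called 3 higher, and 7 log2 fold changes were positive and 4 negative. The groups did not overlap for 4, all higher in DT-labelled libraries: S100a9 (log2 fold change 1.72 ± 0.41), Ngp (2.41 ± 0.43), Retnlg (1.93 ± 0.46) and Csf3r (0.50 ± 0.14). The 4 negative ones had overlapping groups: Ly6g (-4.5 ± 1.5), Mpo (-1.41 ± 0.58), S100a8 (-0.88 ± 0.80) and Cxcr2 (-0.74 ± 0.64). Of 9 mast cell markers tested 0 passed by edgeR or DESeq2 and 8 had a positive log2 fold change, with a median of 0.54, Kit at -0.71 ± 0.36 being the exception. Trophoblast markers summed to 37.4 to 73.1 CPM in DT-labelled libraries, against 300 and 766 CPM in PBS-labelled replicates 1 and 2, and 19.5 and 38.4 CPM in the other PBS-labelled libraries. The part of these cells in the values of the eosinophil genes was not tested.

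The tested genes outside the list whose log2 CPM followed the mean z-score of the members most closely over the 8 libraries were Gm37314 (Pearson r = 0.957), Gm16853 (0.953), Pfdn1 (0.944), Cdh19 (0.942) and Gm7658 (0.938). Among the members themselves, Siglecf and Alox15 had r = 0.881, Alox15 and Ear6 0.843 and Ear1 and Ear2 0.738, while Ear2 had 0.0159 with Siglecf and -0.0196 with Alox15. All of these describe 8 libraries that share group and depth.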

How the data were processed

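RNA of 8 uteri was sequenced as paired reads of about 75 bases, per the labels' protocols. The values deposited by the authors were unnormalized counts of reads by Ensembl ID. The submitters' processing notes name GRCm38 and the tools HISAT2, Trimmomatic, SAMtools, featureCounts and DESeq2. Not given in the sources used here are tool versions, annotation release, strandedness and how reads with several matches were counted. Of the 49585 IDs, 49326 matched GENCODE M21, which gave symbols, coordinates and exon lengths, and the other 259 held 0.076% of the counts. Total counts were 94794512 to 109847604 per library, and the common dispersion gave a biological coefficient of variation of 25.0%.

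Counts were tested in R 4.3.3 with edgeR 4.0.16: filterByExpr (minimum count 10, minimum total 15) left 22693 genes, libraries were scaled by TMM factors, and the DT-labelled group was compared with the PBS-labelled one by the robust quasi-likelihood test, two-sided, with Benjamini-Hochberg adjustment over all genes and calls at adjusted p under 0.05. Fold changes are DT over PBS. On simulated data of this design 68% of 2-fold and 94% of 4-fold changes were recovered. Only genes above a set mean CPM were changed there. Siglecf, Prg2, Ear6 and Epx did not reach it, so these shares do not apply to them. The simulated libraries also lacked the fetal differences of PBS replicates 1 and 2. The alternatives were DESeq2 1.42.0, limma voom (limma 3.58.1), other scaling, no filter, libraries left out, the Ear genes summed and a replicate block. Leaving out DT replicate 1 with PBS replicates 1 and 2 was added after seeing the data. Genes that failed the filter had an exact permutation test on CPM. Named genes were all members, Foxp3, list genes that passed, Il5, Ccl11, Ccl24, Il33, Gata1 and Csf2rb, and up to 3 others per list by unadjusted p. The listed genes that failed the filter were named after their values were seen. Members and lists were chosen with earlier results of these data known.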

Additional observations from a re-analysis of the deposited data

Results flagged for a closer look

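Values of the members and related genes were screened for 1 library standing far from the other 3 of its group, and 8 of 90 groups were picked out. For normally distributed values chance gives this in about 1 in 20 groups. The screen used CPM, some resting on 1 or 2 reads, so that rate need not hold here. Among the members, Ear2 was at 8.39 CPM in DT-labelled replicate 1, with 11.4 to 11.6 CPM in the other 3. Prg3 was at 0.0156 CPM in DT-labelled replicate 1 and 0.0103 CPM in PBS-labelled replicate 2, with 0 in the others of each group, which rests on 2 reads and 1 read. Of the other ribonucleases, Rnase2a was at 9.34 CPM in DT-labelled replicate 1, with 0.04996 to 1.02 CPM in the other 3, and Ear10 at 0.020 CPM in DT-labelled replicate 3, with 0 in the other 3. Ccr1 was at 2.77 CPM in DT-labelled replicate 4, with 3.36 to 3.44 CPM in the others. Alox12e was at 1.32 CPM in PBS-labelled replicate 4, with 0.312 to 0.464 CPM in the others. Areg, an epidermal growth factor receptor ligand of type 2 immunity, was at 0.272 CPM in DT-labelled replicate 1, with 0.0816 to 0.107 CPM in the others.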

How the results depend on the processing

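The number of genes called higher over all genes was 73 in edgeR and 275 in DESeq2, with 0 without PBS-labelled replicates 1 and 2, and 0 to 115 with 1 library left out, both in edgeR. The number called lower was 1 in edgeR, 2 with library size only, 58 in DESeq2, and 0 to 5 in edgeR with 1 library left out. Members called higher were 0 in edgeR and 2 in DESeq2. With 1 library left out they were 0 to 1 in edgeR, the 1 being Alox15 without PBS-labelled replicate 4, and 1 to 3 in DESeq2. The 6 edgeR fits in which Ccl5 lost its call had 0 genes called higher, so no member was called there. The members' median log2 fold change was 0.90, and 0.52 to 1.11 with 1 library left out.

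Groups share replicate numbers 1 and 4. Deviations of same-numbered libraries had correlations of -0.49 for replicate 1 and 0.32 for replicate 4. The values differ in sign and libraries of unlike number were not compared, so they do not settle whether libraries were paired. With the replicate block edgeR called 0 genes higher and 0 lower, Siglecf was 1.97, and the log2 fold changes that turned sign were Il5ra (0.27) and Il3ra (-0.0057).

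Without PBS-labelled replicates 1 and 2, Ear1 turned to 0.41, Gata1 to 1.31 and Pla2g4a to -0.027. Without DT-labelled replicate 1 as well, Ear1 turned to 0.77, Gata1 to 1.38, Alox5 to 0.15 and Pla2g4a to -0.0345. With 1 library left out, Epx (-0.042 to 0.44), Il5ra (-0.57 to 0.0335), Ear1 (-0.58 to 0.092), Il3ra (-0.011 to 0.088) and Gata1 (-1.31 to 0.33) lay on both sides of 0, and the cause was not tested. Counts limit Epx, Prg2 and Prg3, read at 0 to 49 per library. They also limit Ear6, read at 2 to 68 per library, and Siglecf in the PBS-labelled libraries, read at 8 to 23.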
